A study of Mus musculus with 6 samples.

Results

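The genes described here are 10 components of TGF-beta signaling that were chosen by symbol: the ligands *Tgfb1*, *Tgfb2* and *Tgfb3*, the receptors *Tgfbr1*, *Tgfbr2* and *Tgfbr3*, the latent TGF-beta binding proteins *Ltbp1* and *Ltbp2*, and the intracellular mediators *Smad3* and *Smad7*. Each symbol had 1 row among the 25403 genes listed, and all 10 genes had enough counts to enter the test, which covered 14496 genes. The rule used gene symbols alone, but the 10 genes were chosen with earlier results of these data known. Bulk RNA-seq was done on the livers of 3 mice labelled WT (wild-type C57BL6/J) and 3 mice labelled *Themis*-KO, a deletion in the whole body for which the labels name no strain. THEMIS is known as a regulator of T cell receptor signaling, and the study asked what its loss does to the liver in metabolic dysfunction-associated steatohepatitis (MASH). Feeding began at an age of 10 to 12 weeks and lasted 3 months in both groups, on a MASH diet (labelled AMYLIN liver NASH diet) in which fat gave 40% and fructose 20% of the calories and to which 2% cholesterol had been added. The comparison is therefore between genotypes on 1 diet, with no chow-fed liver among these 6 libraries.

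TGF-beta ligands are secreted in a latent form, wrapped in their own propeptide and tethered by latent binding proteins to the matrix. Integrins and other activators release the ligand, which binds the type II receptor TGFBR2. TGFBR2 then recruits and phosphorylates the type I receptor TGFBR1, while TGFBR3, also called betaglycan, presents ligand and is needed most for TGF-beta 2. The active receptor phosphorylates SMAD2 and SMAD3, which enter the nucleus with SMAD4, and SMAD7 is a target gene that inhibits the receptor in return. In the liver the pathway is best known for driving hepatic stellate cells to become collagen-producing myofibroblasts.

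The libraries held between 20679642 and 25649767 counts, and expression is given as CPM, counts divided by a library size that TMM scaling had corrected for composition. *Themis* itself did not separate the labels. It stood at 8.07, 25.6 and 12.0 CPM in the livers labelled WT and at 8.63, 7.74 and 9.97 CPM in those labelled *Themis*-KO, with a log2 fold change of −0.79 (SE 0.38) and an adjusted p of 0.199 in edgeR's quasi-likelihood test. Without WT replicate 2, the liver with the highest level, the log2 fold change was −0.20 (adjusted p of 0.597). The altered part of the allele is not given in the sources used here, so a count over the whole gene may include RNA that the mutation leaves in place. The groups below are therefore named by their labels. In WT replicates 1 and 2 the mitochondrial pseudogene *Gm28438* took 96.6% and 96.8% of the counts it shares with *mt-Nd3*, against 2.20% to 3.26% in the other 4 livers, a split that crosses the WT group. Separate mice are implied by the labels but not stated, so p-values measure the spread between these libraries.

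*Tgfb2* rose in the livers labelled *Themis*-KO, and it was the only 1 of the 10 genes with an adjusted p under 0.05 in the test across all genes. None of the 10 was called lower. Across all 14496 genes, 4.97% were called higher and 4.14% lower, so 1 call among 10 genes is not a result about these genes as a group. The fold change was positive for 9 of the 10, against 51.0% of all genes tested, and the median log2 fold change of the 10 was 0.62, against 0.0095 for all genes. An unadjusted p under 0.05 with a higher level was found for 6 of the 10, a threshold that 16.8% of all genes passed in that direction. In 4 genes, *Tgfb1*, *Tgfb2*, *Ltbp2* and *Smad7*, every liver labelled *Themis*-KO lay above every liver labelled WT, which held for 17.7% of all genes. Because the 10 genes were chosen with earlier results of these data known, these shares describe them and do not test them as a group.

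**Figure D1:**
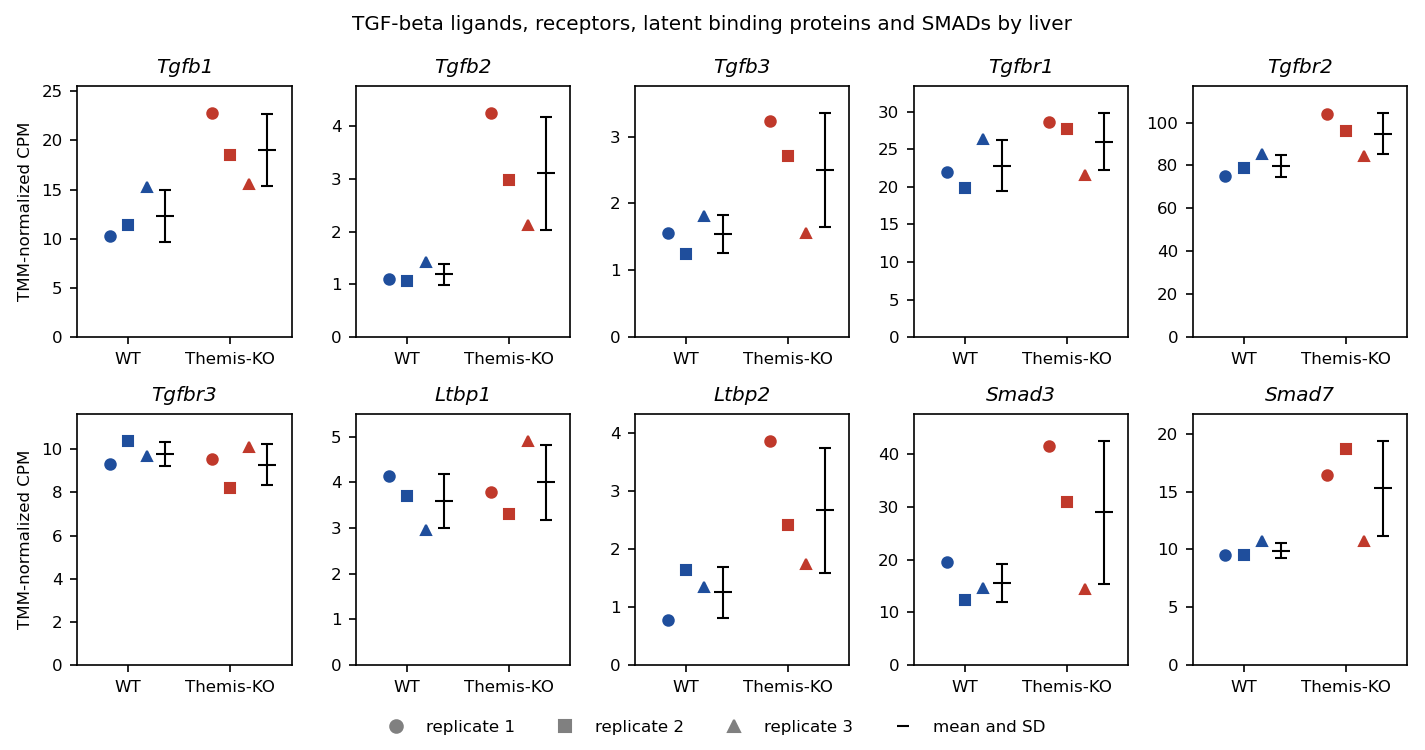
TMM-normalized CPM of the 10 genes (vertical axes, each from 0) in 6 livers, 3 of each label, with points for single livers and marks for the group mean and SD. The groups separate without overlap for Tgfb1, Tgfb2, Ltbp2 and Smad7, and Themis-KO replicate 3 is the lowest of its group for 8 of the 10 genes.

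Among the ligands, *Tgfb1* was the most abundant. *Tgfb1* encodes TGF-beta 1, the main profibrotic isoform, which macrophages, platelets and many other cells make, and lies on chromosome 7 (GRCm38, 25687002-25705077, plus strand). It stood at 10.3, 11.4 and 15.3 CPM in WT replicates 1 to 3 and at 22.8, 18.5 and 15.6 CPM in *Themis*-KO replicates 1 to 3. All livers labelled *Themis*-KO were above all those labelled WT, but the lowest of the former exceeded the highest of the latter by a factor of only 1.02. This gave a log2 fold change of 0.62 (SE 0.19, 95% interval 0.18 to 1.06), or 1.54-fold, with an adjusted p of 0.0767 in edgeR's test. The increase thus missed the threshold, although its interval did not include 0.

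*Tgfb2* encodes TGF-beta 2, the isoform most dependent on betaglycan, and lies on chromosome 1 (186622792-186705989, minus strand). It was a scarce transcript, with 22 to 100 counts per library. Its level was 1.10, 1.06 and 1.42 CPM in the livers labelled WT and 4.25, 2.97 and 2.13 CPM in those labelled *Themis*-KO. The groups did not overlap, the lowest *Themis*-KO liver was 1.5 times the highest WT liver, and *Themis*-KO replicate 1 was the highest of all. The log2 fold change was 1.38 (SE 0.30, 95% interval 0.68 to 2.07), a 2.60-fold difference with an adjusted p of 0.0374. Of all genes tested, 1.86% were called higher with a fold change of at least 2, as *Tgfb2* was. The call was lost when any 1 liver other than *Themis*-KO replicate 3 was left out, with adjusted p between 0.0572 and 0.138, and it held without that replicate, with an adjusted p of 0.0059, while the log2 fold change over all such fits stayed between 1.08 and 1.57.

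*Tgfb3* encodes TGF-beta 3, an isoform best known for its part in palate development, and lies on chromosome 12 (86056745-86079041, minus strand). It was measured at 1.56, 1.25 and 1.82 CPM in the livers labelled WT and at 3.23, 2.71 and 1.56 CPM in those labelled *Themis*-KO. The first and second *Themis*-KO livers were above all WT livers and the third was among them. Its log2 fold change of 0.70 (SE 0.31, 95% interval −0.01 to 1.40) had an adjusted p of 0.168.

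The stretches of 250 bases before the annotated starts of the ligands *Tgfb1* and *Tgfb2* (RefSeq, GRCm38.p6) are shown because the first had the highest level of the 3 ligands and the second the largest difference between the labels, and because their composition differs. The *Tgfb1* stretch lies at chr7:25686752-25687001 on the plus strand and the *Tgfb2* stretch at chr1:186705990-186706239 on the minus strand. Both are written 5′ to 3′, and capitals mark the motifs searched for.
Tgfb1: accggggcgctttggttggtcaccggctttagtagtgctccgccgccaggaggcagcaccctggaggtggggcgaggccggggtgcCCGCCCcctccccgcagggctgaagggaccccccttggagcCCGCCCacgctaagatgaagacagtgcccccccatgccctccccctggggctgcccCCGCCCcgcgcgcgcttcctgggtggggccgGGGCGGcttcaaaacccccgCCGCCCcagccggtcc
Tgfb2: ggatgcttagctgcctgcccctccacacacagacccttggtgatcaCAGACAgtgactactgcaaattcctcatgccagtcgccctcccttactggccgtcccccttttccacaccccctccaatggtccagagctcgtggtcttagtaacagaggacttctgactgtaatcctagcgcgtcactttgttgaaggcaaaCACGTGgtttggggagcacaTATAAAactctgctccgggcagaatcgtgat
The motifs were the TATA box (TATAAA), an E-box (CACGTG), the palindromic SMAD box (GTCTAGAC), the CAGA box (CAGACA) and the GC box (GGGCGG), each read on both strands. The *Tgfb1* stretch was 75.2% G and C, above 96.4% of the 32851 promoters in the table, and held 5 GC boxes and none of the other motifs. The *Tgfb2* stretch was 53.6% G and C, near the median of 52.4%, and held a TATA box at −31, an E-box at −51 and a CAGA box at −204, counted in bases from the start, with no GC box. Of all promoters, 32.7% held a GC box, 12.4% a TATA box, 6.02% the E-box, 17.1% the CAGA box and 0.167% the SMAD box, which was in none of the stretches found for these genes. A match here is a description of the letters and not a bound site. RefSeq entries were found for 7 of the 10 genes, which left out *Tgfb3*, *Tgfbr3* and *Smad7*. GC boxes were also present, 2 each, before *Tgfbr1*, *Smad3* and *Ltbp2*.

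The mix of the 3 ligand transcripts can be read within each library, where scaling between libraries plays no part. *Tgfb2* made up 8.51%, 7.69% and 7.68% of the ligand counts in the livers labelled WT and 14%, 12.3% and 11% in those labelled *Themis*-KO. Every *Themis*-KO share was above every WT share, although the 95% Wilson intervals of single livers, which cover counting error only, were wide (5.13% to 11.4% in WT replicate 2 and 8.35% to 14.4% in *Themis*-KO replicate 3). The group means were 7.96% ± 0.477 and 12.5% ± 1.5 (SD, n = 3 each), with an exact two-sided permutation p of 0.1, the smallest that 3 livers against 3 can give. *Tgfb1* took 81.7% ± 2.01 of the ligand counts in the WT group and 77.6% ± 2.94 in the *Themis*-KO group (exact permutation p of 0.2), and *Tgfb3* took 10.3% ± 1.55 and 9.99% ± 1.67 (exact permutation p of 0.9). These are shares of counts. After division by transcript length the *Tgfb2* share was 6.66% ± 0.355 and 10.5% ± 1.23, in the same direction.

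None of the 3 receptor genes passed the test, and their median log2 fold change was 0.19, where that of the 3 ligands was 0.70. *Tgfbr1*, the type I receptor kinase (chromosome 4, 47353222-47414931, plus strand), stood at 22.0, 19.8 and 26.4 CPM in the livers labelled WT and at 28.6, 27.7 and 21.6 CPM in those labelled *Themis*-KO. The groups overlapped, since *Themis*-KO replicate 3 was below WT replicates 1 and 3. Its log2 fold change of 0.19 (SE 0.15, adjusted p of 0.407) had a 95% interval of −0.15 to 0.53, which leaves a difference of up to 1.45-fold possible.

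*Tgfbr2* encodes the type II receptor that binds ligand first (chromosome 9, 116084293-116175360, minus strand), and it was the most abundant of the 10 transcripts. It measured 75.1, 78.9 and 85.2 CPM in the livers labelled WT and 104, 96.0 and 84.5 CPM in those labelled *Themis*-KO. Only *Themis*-KO replicate 3 fell inside the WT range, just under WT replicate 3. On the log2 scale the difference was 0.25 (SE 0.10, 95% interval 0.02 to 0.48), or 1.19-fold, and the adjusted p was 0.141. Upper quartile scaling and scaling by total counts alone set all *Themis*-KO livers above the WT livers, by factors of 1.01 and 1.03 between the nearest livers.

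*Tgfbr3* encodes betaglycan, the coreceptor (chromosome 5, 107106570-107289629, minus strand), and was the only 1 of the 10 with a negative fold change. Its level was 9.31, 10.4 and 9.67 CPM in the livers labelled WT and 9.56, 8.22 and 10.1 CPM in those labelled *Themis*-KO. The groups overlapped, although *Themis*-KO replicate 2 was below all WT livers. The log2 fold change of −0.08 (SE 0.13, adjusted p of 0.709) had a 95% interval of −0.37 to 0.22, so the *Themis*-KO level lay between 0.774 and 1.16 times the WT level by this fit. The sign turned with scaling by total counts alone, to 0.06.

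The latent binding protein genes gave unlike values. *Ltbp1*, whose product anchors the latent ligand in the matrix (chromosome 17, 75005568-75392512, plus strand), stood at 4.13, 3.70 and 2.96 CPM in the livers labelled WT and at 3.78, 3.31 and 4.91 CPM in those labelled *Themis*-KO. Here *Themis*-KO replicate 3 was the highest of all livers and the groups overlapped. On the log2 scale the difference was 0.16 (SE 0.21, 95% interval −0.34 to 0.65), with an adjusted p of 0.648.

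*Ltbp2* (chromosome 12, 84783212-84876532, minus strand), whose product belongs to the same family but is known as a microfibril protein that does not bind latent TGF-beta, stood at 0.78, 1.63 and 1.34 CPM in the livers labelled WT. In those labelled *Themis*-KO it reached 3.87, 2.41 and 1.75 CPM. The groups did not overlap, by a factor of 1.07 between the nearest livers. A log2 fold change of 1.10 (SE 0.37, 95% interval 0.23 to 1.96), or 2.14-fold, had an adjusted p of 0.0958. The counts were low, from 17 to 91 per library, and the interval was correspondingly wide. Exons of *Ltbp2*, *Tgfb2* and *Tgfb3* overlap antisense genes by 764, 124 and 420 bases, and the sources used here do not state whether reads were counted by strand. The antisense gene listed at *Ltbp2*, *D030025P21Rik*, had at most 1 count in a library.

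*Smad3* encodes the receptor-activated SMAD that drives most fibrotic target genes (chromosome 9, 63646767-63757994, minus strand). It measured 19.5, 12.4 and 14.6 CPM in the livers labelled WT and 41.6, 30.9 and 14.5 CPM in those labelled *Themis*-KO. The first and second *Themis*-KO livers were far above the WT range, and the third lay inside it. A log2 fold change of 0.91 (SE 0.35, 95% interval 0.10 to 1.72), or 1.87-fold, had an adjusted p of 0.129. Its SD in the *Themis*-KO group, 13.6 CPM around a mean of 29.0 CPM, was the largest relative to the mean among the 10 genes.

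*Smad7* encodes the inhibitory SMAD that the pathway itself induces (chromosome 18, 75367529-75395935, plus strand). It stood at 9.54, 9.5 and 10.7 CPM in the livers labelled WT and at 16.4, 18.7 and 10.7 CPM in those labelled *Themis*-KO. The WT livers lay close together, and *Themis*-KO replicate 3 was above the highest of them by a factor of only 1.01. The log2 fold change was 0.63 (SE 0.20, 95% interval 0.16 to 1.09), or 1.54-fold, with an adjusted p of 0.0839.

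**Figure D2:**
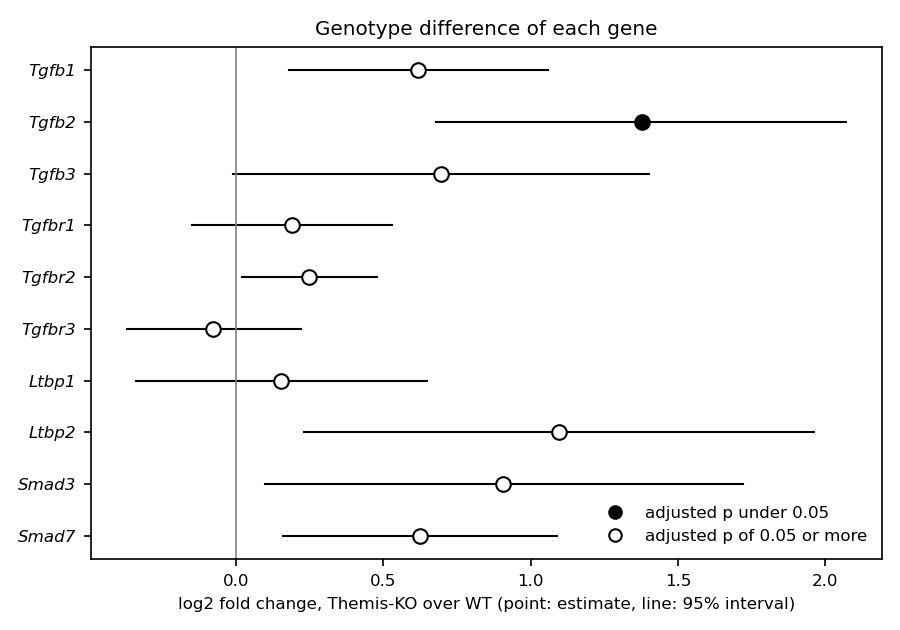
Log2 fold change of each of the 10 genes, livers labelled Themis-KO over livers labelled WT (horizontal axis), with 95% intervals from the edgeR fit on 3 livers a group. The point of Tgfb2, at 1.38, is the one with an adjusted p under 0.05, and the intervals of Tgfb3, Tgfbr1, Tgfbr3 and Ltbp1 include 0.

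Set in order of level per transcript length (TPM over the merged exons of each gene, mean of 6 livers), *Tgfbr2* led at 25.9 TPM, followed by *Smad3* at 9.94, *Tgfbr1* at 9.07, *Tgfb1* at 7.61 and *Smad7* at 6.84. *Tgfbr3* followed at 3.50 TPM, and *Tgfb3*, *Tgfb2*, *Ltbp1* and *Ltbp2* lay at 1.47, 0.926, 0.856 and 0.594 TPM. The places of *Smad3*, *Tgfbr1*, *Tgfb1* and *Smad7* were not separated by their spread, and the order of *Tgfb2* and *Ltbp1* differed between the groups. *Ltbp1* was above *Tgfb2* in the WT group, at 0.761 ± 0.10 against 0.47 ± 0.101 TPM, and below it in the *Themis*-KO group mean, at 0.951 ± 0.155 against 1.38 ± 0.50 TPM. *Smad3*, for example, was 6.36 ± 1.47 TPM in the WT group and 13.5 ± 6.58 TPM in the *Themis*-KO group (SD, n = 3 each), on either side of the 7.95 ± 1.56 and 10.2 ± 1.85 TPM of *Tgfbr1*. The type II receptor was above all 3 ligands in every liver, with *Tgfbr2* at 22.2 ± 2.36 and 29.6 ± 3.94 TPM and *Tgfb1* at 5.59 ± 1.45 and 9.64 ± 2.07 TPM.

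The 3 livers labelled *Themis*-KO were not alike, for these genes or over the whole table, where replicates 1 and 2 were the closest pair. *Themis*-KO replicate 1 was above the highest WT liver for 8 of the 10 genes and replicate 2 for 8, while replicate 3 was at or under it for 5. Relative to the WT mean, *Smad3* stood at 2.69, 1.99 and 0.938 in *Themis*-KO replicates 1 to 3. *Tgfb2* stood at 3.56, 2.49 and 1.78, and *Tgfb1* at 1.85, 1.5 and 1.26. Replicate 3 was the lowest of its group for 8 of the 10 genes, which was so for 41% of all genes tested and 75.7% of the genes called higher. In 7 of the 10, the order was replicate 1, 2, 3 from high to low, an order that 22.5% of all genes and 43.3% of those called higher had. The replicate numbers carry no order of their own.

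Of the 10 genes, 8 had *Themis*-KO replicates 1 and 2 above all WT livers, and in 4 of these, *Tgfb3*, *Tgfbr1*, *Tgfbr2* and *Smad3*, replicate 3 was not (50%, against 43.3% of the 4529 genes of all those tested with that pattern). Without replicate 3, 7 of the 10 genes were called higher, at a time when 15.0% of all genes were: *Tgfb1*, *Tgfb2*, *Tgfb3*, *Tgfbr2*, *Ltbp2*, *Smad3* and *Smad7*. In that fit the adjusted p was 0.0057 for *Smad3* and 0.0040 for *Smad7*.

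**Figure D3:**
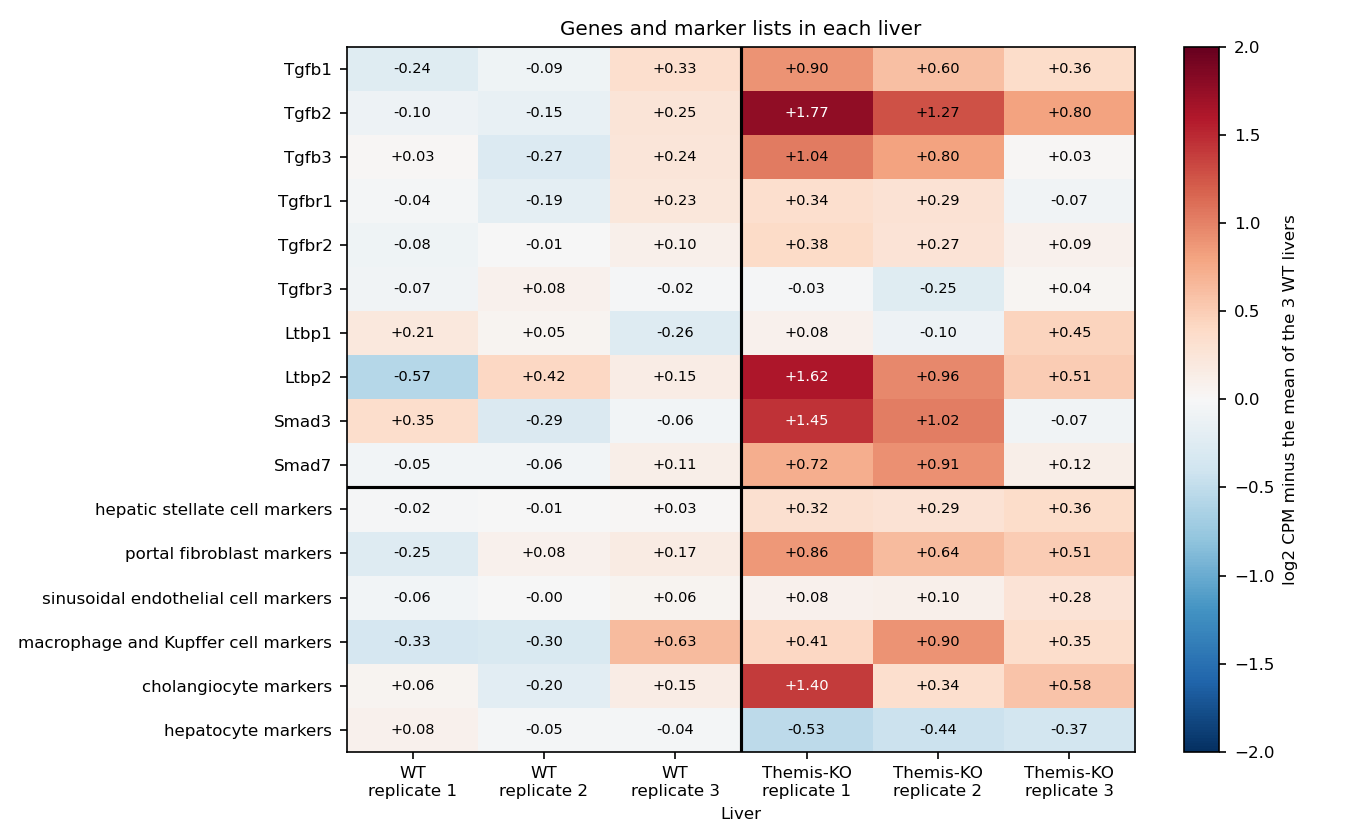
Log2 CPM of the 10 genes and mean log2 CPM of 6 marker lists in each of the 6 livers, minus the mean of the 3 livers labelled WT (colour scale from −2 to 2, values written in the cells). Among the livers labelled Themis-KO, Tgfb1, Tgfb2, Tgfb3, Ltbp2 and Smad3 are highest in replicate 1 and lowest in replicate 3. In the same group the portal fibroblast and cholangiocyte markers are highest in replicate 1, the macrophage markers in replicate 2 and the endothelial markers in replicate 3. The stellate markers are nearly level across the 3 livers.

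The number of these genes called higher also depended on the test and the filter. DESeq2, the tool named in the study's methods, called 5 of the 10 higher, *Tgfb1*, *Tgfb2*, *Ltbp2*, *Smad3* and *Smad7*, with adjusted p between 0.0024 and 0.0496, when it called 8.82% of all genes higher. The edgeR fit with no filter on low counts called the same 5, with 4.77% of all genes. *Tgfb2* alone was called with RLE size factors (4.77% of all genes), upper quartile scaling (4.89%), total counts alone (10.0%) and at least 10 counts in every liver (5.6%). No gene of the 10 was called without WT replicate 1, 2 or 3 (0.0809%, 0.128% and 3.24% of all genes) or without *Themis*-KO replicate 1 or 2 (0.0543% and 0.183%). The same held with the replicate number as a block (0.117%). With the split of the mitochondrial counts as a covariate, the genotype term compared the livers labelled *Themis*-KO with WT replicate 3 alone. Log2 fold changes were then 0.312 for *Tgfb1*, 1.13 for *Tgfb2* and 0.465 for *Tgfb3*, against 0.62, 1.38 and 0.70 in the fit as reported. Those of *Tgfbr1*, *Tgfbr2* and *Tgfbr3* were −0.025, 0.154 and −0.06. *Ltbp1* and *Ltbp2* stood at 0.432 and 0.996, and *Smad3* and *Smad7* at 0.993 and 0.52.

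**Figure D4:**
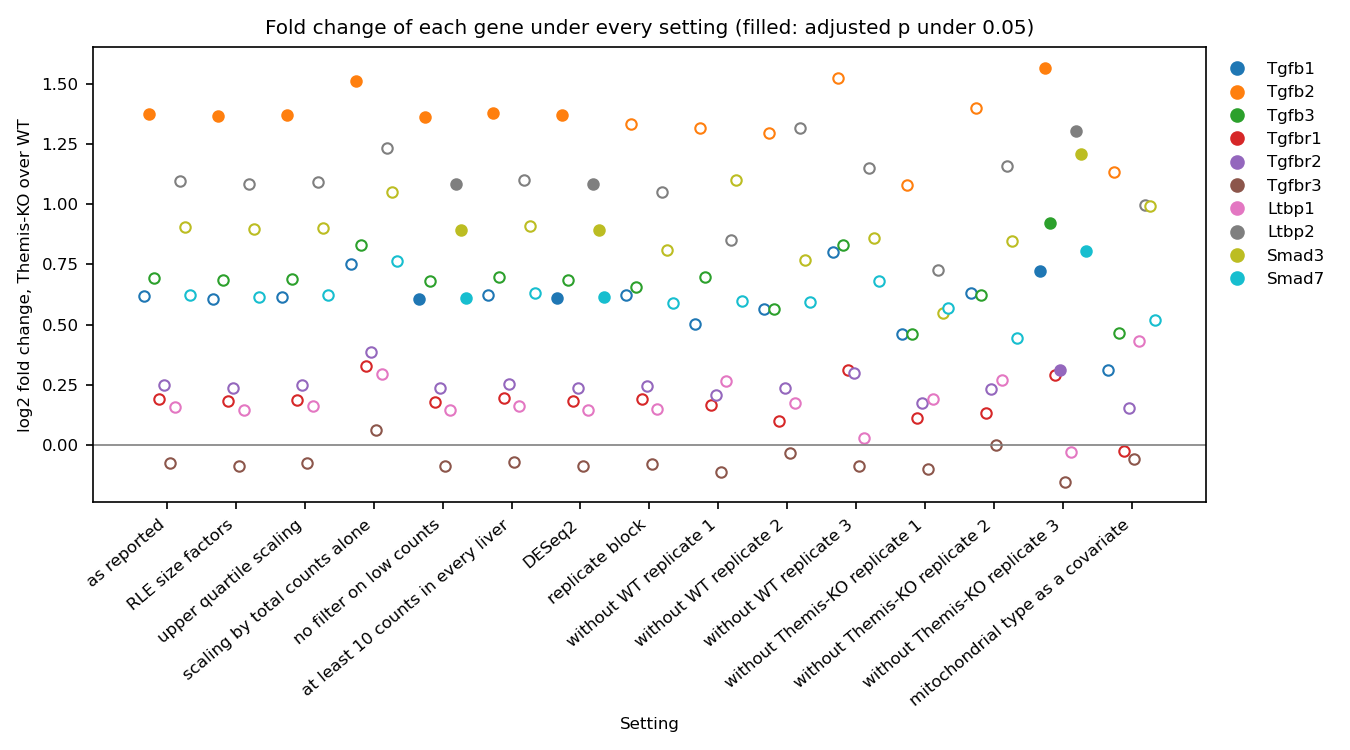
Log2 fold change of the 10 genes, livers labelled Themis-KO over livers labelled WT (vertical axis), in the fit as reported and under 14 other settings (horizontal axis), with filled points where the adjusted p was under 0.05. Tgfb2 is the highest of the 10 in every setting but the fit without WT replicate 2, where Ltbp2 is, and it is called in 8 of the 15 fits shown, and 7 genes are called without Themis-KO replicate 3.

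Livers hold many cell types, and in bulk tissue a change in the share of a cell type and a change in RNA per cell cannot be told apart. Markers of several cell types moved with the labels. The calls given below stand beside 4.97% of all genes called higher and 4.14% called lower. For hepatic stellate cells the summed level of 11 markers was 462 to 506 CPM in the livers labelled WT and 581 to 639 CPM in those labelled *Themis*-KO, with 3 of 11 called higher. For portal fibroblasts it was 91.7 to 96.2 CPM and 160 to 192 CPM (3 of 7 called higher), and for cholangiocytes 167 to 207 CPM and 399 to 629 CPM (1 of 7). Sinusoidal endothelial markers ranged from 271 to 299 CPM and from 301 to 346 CPM (1 of 8). Hepatocyte markers were at 65800 to 69600 CPM and 50600 to 55700 CPM, with 2 of 10 called lower, so the tissue label was borne out by its markers. Macrophage markers overlapped, at 241 to 439 CPM and 384 to 527 CPM (3 of 10 called higher), and so did T cell markers at 3.98 to 5.52 CPM and 3.10 to 7.31 CPM and B cell markers at 2.34 to 5.57 CPM and 1.59 to 4.91 CPM. Of 7 T cell markers 5 were tested and 1 was called lower. Of 5 platelet markers 2 were tested and 1 was called higher, and the summed level of all 5 was 3.21 to 4.17 CPM and 5.01 to 5.31 CPM. The part of these cell types in the values of the 10 genes was not tested. Among the livers labelled *Themis*-KO, the portal fibroblast sum was highest in replicate 1 (192, 160 and 165 CPM in replicates 1 to 3), as was the cholangiocyte sum (629, 399 and 401 CPM). The stellate sum was highest in replicate 3 (581, 585 and 639 CPM), and the macrophage sum in replicate 2 (405, 527 and 384 CPM). The mean log2 CPM of the stellate list was nearly level, at 5.05, 5.02 and 5.09. Its members did not share 1 order, with *Pdgfrb* at 27.0, 24.1 and 16.5 CPM and *Rgs5* at 80.0, 71.4 and 93.7 CPM. Of the livers labelled WT, replicate 3 had the highest macrophage sum, 439 CPM. It also had the highest WT level of 6 of the 10 genes. The same was so for 33% of all genes tested and 70.5% of those called higher.

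Other genes of the pathway were read from the same test in 5 lists, which share no gene with the 10. The lists were chosen with earlier results of these data known, so the shares below describe them and do not test them. Of 86 genes in them, 78 were tested, 14 were called higher, 2 lower and 62 neither, with a median log2 fold change of 0.31. Of all genes tested, 4.97% were called higher and 4.14% lower. The groups did not overlap for 28 with the *Themis*-KO livers above and 5 with them below, where 17.7% and 16.9% of all genes did so. *Mstn*, *Grem1* and *Nog* were not analysed here.

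**Figure D5:**
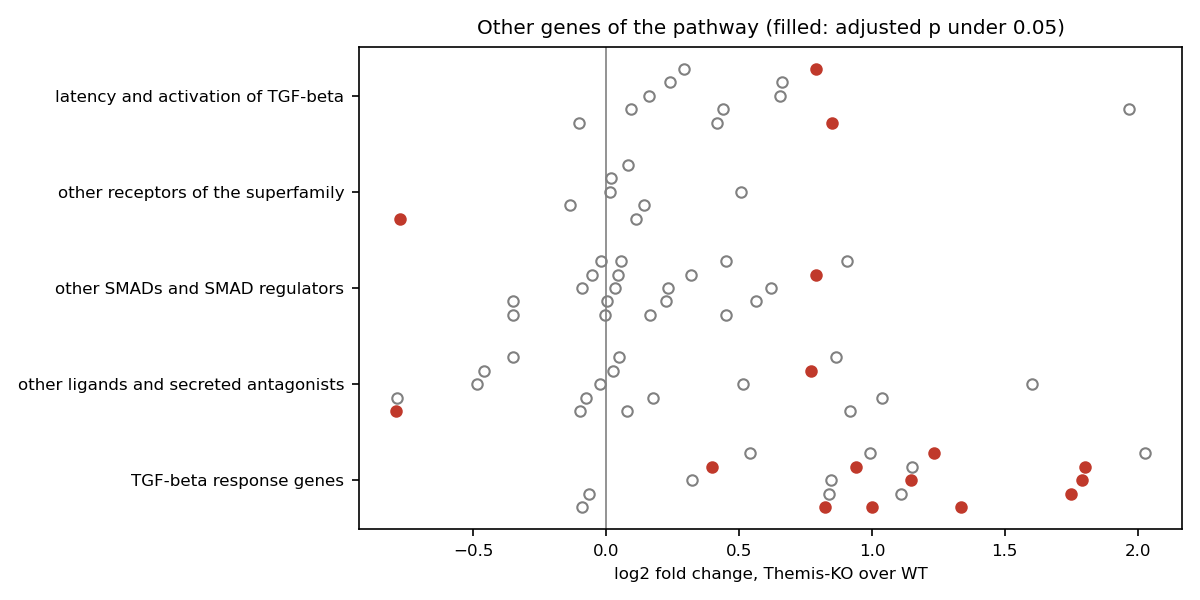
Log2 fold change of the 78 tested genes of 5 pathway lists, livers labelled Themis-KO over livers labelled WT (horizontal axis), 1 point per gene, filled where the adjusted p was under 0.05. The 20 response genes lie farthest to the right, with 10 filled points and a median of 1.00, and the other 4 lists have 1 or 2 filled points each.

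The TGF-beta response genes had the highest median log2 fold change of the 5 lists, 1.00, with 10 of 20 called higher and none lower (4.97% and 4.14% of all genes). This list holds *Col1a1*, *Col1a2*, *Acta2* and *Cdkn1a*, which the paper had reported by qPCR as raised in *Themis*-KO livers. The share of calls is therefore a description and not a test of the list. *Ccn2*, the matricellular connective tissue growth factor, rose from 13.9 to 32.6 CPM (log2 fold change 1.23, SE 0.12, adjusted p of 0.0093). *Col1a2*, *Col3a1* and *Postn*, which encode fibrillar collagen chains and periostin, rose by 1.00, 0.94 and 0.82 on the log2 scale, each with an adjusted p of 0.0094. *Col1a1* stood at 21.1, 17.3 and 24.3 CPM in the livers labelled WT and at 56.9, 48.2 and 33.8 CPM in those labelled *Themis*-KO (1.15, SE 0.20, adjusted p of 0.0248). The other called genes were *Ccn1*, *Timp1*, *Bgn*, *Lox* and *Cdkn1a*. In *Ccn2* the third *Themis*-KO liver was the highest of its group, at 36.6 CPM, whereas for *Smad3* and *Smad7* it was the lowest.

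Genes that hold or release latent TGF-beta gave 2 calls among 12 tested, both higher (4.97% of all genes), and a median of 0.43. *Fbn1*, the microfibril protein fibrillin-1 to which latent complexes attach, rose from 5.93 to 10.7 CPM (0.85, SE 0.15, adjusted p of 0.0255), and *Itgb3*, the beta 3 integrin subunit, from 5.14 to 8.88 CPM (0.79, SE 0.15, adjusted p of 0.0283). *Thbs1*, named here after its values were seen, encodes the activator thrombospondin-1. Its groups overlapped, since *Themis*-KO replicate 3 was below WT replicate 3. It stood at 3.39, 3.22 and 5.56 CPM in the livers labelled WT and at 26.9, 16.2 and 4.82 CPM in those labelled *Themis*-KO (1.97, adjusted p of 0.0626).

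Among the other SMADs and their regulators 1 of 20 was called, higher, a share near the 4.97% of all genes called higher. This was *Pmepa1*, a SMAD-induced inhibitor of the pathway, which rose from 5.90 to 10.2 CPM (0.79, SE 0.17, adjusted p of 0.0373). *Smad2*, the other receptor-activated SMAD of this branch, was at 17.1, 20.5 and 19.7 CPM in the livers labelled WT and at 21, 18.8 and 19.3 CPM in those labelled *Themis*-KO, a log2 fold change of 0.05 (95% interval −0.20 to 0.29). *Smad4*, the common partner, was at 21.8, 20.5 and 23.5 CPM and at 28.2, 26.4 and 22.1 CPM (0.22, 95% interval −0.04 to 0.49, adjusted p of 0.225). *Smad3*, with 0.91, had a larger fold change than either, but the difference between these SMAD genes was not tested.

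The other receptors of the superfamily gave no higher call and 1 lower call among 8 tested (4.97% and 4.14% of all genes). *Acvr2b*, an activin type II receptor, fell from 2.80 to 1.63 CPM (−0.78, SE 0.19, adjusted p of 0.0457). Of 18 tested ligands and secreted antagonists of the superfamily, 1 was called higher, 1 lower and 16 neither, near those shares. *Fstl1*, a secreted follistatin-like protein, rose from 8.93 to 15.3 CPM (0.77, SE 0.14, adjusted p of 0.0255). The medians of these lists, 0.05 and 0.04, were near that of all genes.

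The patterns most like those of 2 of the ligands were looked for over the 6 livers, as the root mean square difference in log2 CPM after each gene was centred on its own mean. Nearest to *Tgfb1* were *Arl4c*, *Dusp6* and *Nol10*, at 0.0595, 0.0608 and 0.0778, where the median over 9850 genes was 0.418. Nearest to *Tgfb2* were *Col1a1*, *Sox4* and *Pdlim7*, at 0.13, 0.131 and 0.133, with a median of 0.728 over 9851 genes. Among the 10 genes the closest pair was *Tgfbr1* and *Tgfbr2*, at 0.108, followed by *Tgfb3* and *Smad7* at 0.179. These values are descriptions over 6 livers that share 1 contrast.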

How the data were processed

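RNA-seq was measured in the livers of 3 mice labelled WT and 3 labelled *Themis*-KO. Per the processing notes, the authors trimmed poly(A) paired-end reads with cutadapt 2.3, mapped them to GRCm38 with STAR 2.7.8a and deposited RSEM 1.3.3 estimated counts per gene, which are not normalized and are whole numbers in the table. The annotation release is not given in the sources used here. Gene positions and lengths came from GENCODE vM21 (25321 of 25403 genes matched).

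The groups were compared with edgeR 4.0.16 in R 4.3.3 (filterByExpr, TMM, glmQLFit and glmQLFTest, no covariate, all 6 livers), with Benjamini-Hochberg adjustment over the 14496 genes kept and a threshold of 0.05. Standard errors and 95% intervals were derived from the F statistic. CPM hold no prior count, except a prior of 2 on the log2 scale. Shares were compared by exact permutation. Library sizes of 20679642 to 25649767 counts set the precision. No pair of livers agreed within sampling noise (lowest chi-square per degree of freedom 9.12, between *Themis*-KO replicates 1 and 2). *Themis*-KO replicate 3 stood at 37.8 and 38.9 against *Themis*-KO replicates 1 and 2. Against WT replicates 1 to 3 it stood at 69.8, 38.25 and 33.1. Pairs of WT livers ranged from 25.4 to 33.25. The main test did not pair the livers by replicate number. The paper describes them as pairs, and the labels do not say which livers belong together. The fits were tested on simulated data. Figures were drawn with matplotlib 3.10.9.

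The 10 genes and all lists were chosen with earlier results of these data known. Genes named are the 10, *Themis*, *Smad2*, *Smad4*, *Ccn2*, *Col1a1*, up to 4 genes a pathway list with the lowest adjusted p among those under 0.05 (with none, the 2 of highest CPM), and the 3 nearest patterns with a mean of at least 5 CPM to *Tgfb1* and to the gene with the lowest adjusted p. Some genes that this rule covers are not reported here. As alternatives, other scalings, filters and thresholds were used, each liver was left out, the replicate number or the mitochondrial split entered as a term, and DESeq2 1.42.0 was run.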

Additional observations from a re-analysis of the deposited data

How the results depend on the processing

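With 3 livers a group and 17 to 100 counts per library for *Tgfb2* and *Ltbp2*, small differences were not detectable at this depth. The number of the 10 genes called higher was 1 as reported, 5 with DESeq2 and 5 with no filter on low counts. It was 4 at an adjusted p under 0.1 and 0 to 7 with 1 liver left out, and none was called lower in any setting. Genes called higher over the whole table were 721 as reported, 1449 by total counts alone, 1212 with no filter, 1279 with DESeq2, 1664 at an adjusted p under 0.1, 269 at 2-fold and 8 to 2228 with 1 liver left out. Genes called lower were 600 as reported and 387, 967, 1090, 1316, 162 and 12 to 2039 in those settings. Of the pathway lists, 14 genes were called higher as reported and 23, 27, 25, 28, 7 and 1 to 34 in the same settings. In these lists 2 were called lower as reported, 1 by total counts alone, 0 at 2-fold and 0 to 4 with 1 liver left out. The high end of each leave-out range came without *Themis*-KO replicate 3. The fit with the mitochondrial covariate set the livers labelled *Themis*-KO against WT replicate 3 alone, so its calls are not given. Total counts alone moved the median log2 fold change of all genes from 0.0095 to 0.147. The cause was not tested in any of these.

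Signs turned for *Tgfbr1* with the covariate (−0.025), *Tgfbr3* by total counts alone (0.06), *Ltbp1* without *Themis*-KO replicate 3 (−0.031, in a range up to 0.269 with 1 liver left out) and *Smad2* without WT replicate 1 (−0.03), without *Themis*-KO replicate 1 (−0.009, in a range up to 0.094) and with the covariate (−0.001). *Tgfb2* kept its direction in all 14 alternatives and was called in 7. Apart from the fit with the covariate, its adjusted p ranged from 0.0024 to 0.138.

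With the replicate block, 0 of the 10 genes, 17 genes of the whole table and 2 of the pathway lists were called higher, and 45 genes of the table and 0 of the lists lower. The numbers share no stated litter or day, and deviations from the group means correlated at −0.13 on average for the same number and 0.066 for different numbers.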
